A study of Homo sapiens with 8 samples.

Results

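The genes HSPA5, HSP90B1, HYOU1, DNAJB9, DNAJC3, SDF2L1, CALR, CANX, PDIA4 and PDIA6, which encode folding proteins of the endoplasmic reticulum (ER), were chosen by name from the deposited expression matrix. They are 10 of 16153 genes in the matrix. The rule that picks them uses names only, but they were chosen with earlier results of these data known. All 10 were among the 16103 genes that reached 1 CPM (the authors' read counts scaled for library size) in at least 2 libraries. The cells were HMEC-1, an immortalised human dermal microvascular endothelial line, grown on gelatin-coated coverslips in serum-containing MCDB131 medium with EGF and hydrocortisone in every group. Of the 8 libraries, 3 came from cells exposed to microgravity aboard the Space Station (space_microg), 2 from cells that flew alongside them on a centrifuge giving 1 g (space_1g), and 3 from cells incubated on Earth (ground). Media changes were simultaneous in orbit and on Earth, and the flown cells were fixed before they returned. Radiation and all other conditions of flight were shared by both flight groups, and an immortalised line is a limited model of endothelium in a vessel. Whether replicates were separate cultures is not stated in the labels, so p-values here speak of the spread among the libraries, which could be technical.

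Proteins that enter the secretory pathway fold in the ER, where Hsp70-type and Hsp90-type chaperones, J-domain helpers, lectins that read sugar chains and disulfide isomerases act on them. When unfolded chains accumulate, the sensors IRE1 (gene ERN1), PERK (gene EIF2AK3) and ATF6 start the unfolded protein response. ATF6 and the factor XBP1, made by IRE1-dependent splicing, switch on genes of the chaperones, while PERK acts through ATF4 on amino acid and stress genes. Endothelial cells carry a heavy secretory load that includes matrix proteins and von Willebrand factor.

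The libraries held 24248964 to 35388757 reads in the listed genes, and the 10 chaperones took 0.289% to 0.407% of them. A pair of libraries from different groups stood apart: on the first principal component (61.9% of the variance) space_1g replicate 1 scored 60.7 and ground replicate 3 scored 64.7, against -31.1 to 1.51 in the other 6. Counts and medians of the chaperones and of each list below are therefore given with and without this pair. The endothelial markers PECAM1 (201 to 367 CPM) and CDH5 (268 to 579 CPM) were present in every library. Other markers of that list were low: CLDN5 ranged from 0.26 CPM in space_microg replicate 2 to 9.93 CPM in ground replicate 3. EMCN was at 1.04 CPM in space_1g replicate 1 and 1.2 CPM in ground replicate 3, against 12.5 to 21.5 CPM in the other 6. The leukocyte marker PTPRC and the epithelial marker EPCAM were not found in the matrix under the names searched. The epithelial list was represented by KRT18 alone of its 5 genes, at 225 to 333 CPM in every library. Summed over the 10 endothelial markers, space_microg held 1192 to 1703 CPM and space_1g 1274 to 1437 CPM, against 1724 to 2033 CPM in ground, so each flight group lay below ground. With all libraries 8 of 10 were lower in space_microg (53.0% of all genes) and 9 of 10 in space_1g (48.8%), with medians of -0.39 and -0.40. At an unadjusted p under 0.05 in limma, 2 were lower in space_microg (2.27% of all genes) and 3 in space_1g (0.826%). After adjustment 0 of 10 passed. Without the pair 10 of 10 were lower in either flight group (50.8% and 48.7% of all genes). The medians were then -0.42 in space_microg and -0.61 in space_1g, with 1 library left in space_1g. The part of this in the results below was not tested. Of the 5 leukocyte markers 1 was found, CD14, at 1.04 to 2.88 CPM. Of the 6 fibroblast markers 3 were found, and COL3A1 was at 0 in ground replicate 3. The summed level of these 3 was 131 to 264 CPM in space_microg, 101 to 276 CPM in space_1g and 154 to 232 CPM in ground, and COL1A1 made up most of it. Without the pair, COL1A2 (-1.14 ± 0.19) and COL3A1 (-0.98 ± 0.31) were lower in space_microg than in ground at an unadjusted p under 0.05, beside -0.015 ± 0.26 for COL1A1, and none passed adjustment in limma. Of the 5 smooth muscle markers 3 were found. Their sum was 36.5 to 53.2 CPM in space_microg, 48.8 to 59.1 CPM in space_1g and 28.4 to 74.8 CPM in ground. Without the pair ACTA2 was higher in space_microg than in ground (0.71 ± 0.18) at an unadjusted p under 0.05, where 5.83% of all genes were higher. TAGLN differed by 0.33 ± 0.23, and neither gene passed adjustment. The part of these markers in the results below was not tested.

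The promoters are shown because the ER stress response element (ERSE) is known as an element through which genes of ER chaperones are switched on. Promoter windows from RefSeq (GRCh38.p14), 250 bases before to 50 after each annotated start, were found for all 10 genes and searched on both strands. The ERSE letters, CCAAT and CCACG with any 9 bases between them, were found for 5 of the 10 (HSPA5, HSP90B1, CALR, CANX and PDIA6), against 0.0916% of all 27305 genes with a window. The ERSE-II letters, ATTGG and CCACG with any 1 base between them, were found for another 2 (HYOU1 and SDF2L1), against 0.0696% of all genes. Another set of letters, TGACGTG, the core of the XBP1 and ATF6 site called UPRE, occurred in HYOU1, where it overlaps the ERSE-II farther from the start, and in 2.40% of all genes. DNAJB9, DNAJC3 and PDIA4 held neither ERSE nor ERSE-II letters in these windows. A match is a description of letters, not evidence of binding. Each element is given with 5 flanking bases, 5′ to 3′ on the strand of the gene, with the fixed letters of the element in capitals. CALR, HYOU1 and SDF2L1 and the second HSP90B1 element carry it in the opposite orientation.
HSPA5 (chr9:125241386-125241414, minus strand): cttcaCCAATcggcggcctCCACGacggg
HSP90B1 (chr12:103930211-103930239, plus strand): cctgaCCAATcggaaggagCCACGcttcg
HSP90B1 (chr12:103930316-103930344, plus strand): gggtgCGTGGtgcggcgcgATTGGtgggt
CALR (chr19:12938379-12938407, plus strand): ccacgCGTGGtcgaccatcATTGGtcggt
CANX (chr5:179698773-179698801, plus strand): cccggCCAATcttcacactCCACGaagaa
PDIA6 (chr2:10812848-10812876, minus strand): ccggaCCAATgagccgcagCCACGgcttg
HYOU1 (chr11:119057375-119057395, minus strand): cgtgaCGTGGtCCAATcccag
HYOU1 (chr11:119057269-119057289, minus strand): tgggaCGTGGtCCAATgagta
SDF2L1 (chr22:21642109-21642129, plus strand): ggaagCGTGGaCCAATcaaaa

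The element of HSPA5 spans positions -66 to -48 relative to the RefSeq start, where -1 is the base just before it, and the elements of HYOU1 span -185 to -175 and -79 to -69. The elements of HSP90B1 and CANX overlap exons annotated in GENCODE v29. The next sequences give these elements in context for HSPA5, the member that differed most in 2 of the 3 comparisons below, and for HYOU1, the member with 2 ERSE-II elements. The HSPA5 stretch covers the 150 bases before its start and the HYOU1 stretch the 200 bases before its start, with the same letters in capitals.
HSPA5 (chr9:125241344-125241493, minus strand): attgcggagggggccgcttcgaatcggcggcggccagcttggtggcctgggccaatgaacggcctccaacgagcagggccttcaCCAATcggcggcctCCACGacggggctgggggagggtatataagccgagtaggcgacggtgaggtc
HYOU1 (chr11:119057206-119057405, minus strand): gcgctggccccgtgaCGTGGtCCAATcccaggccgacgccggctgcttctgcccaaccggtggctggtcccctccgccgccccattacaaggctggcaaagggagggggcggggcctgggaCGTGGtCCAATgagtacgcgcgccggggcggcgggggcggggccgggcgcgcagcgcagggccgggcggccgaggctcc

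Per length of exon, CALR was the most abundant of the 10 mRNAs, with 266 ± 59.1 CPM per kb (SD, n = 8 libraries). HSP90B1 (145 ± 26.1 CPM per kb) and CANX (141 ± 14.6 CPM per kb) followed, and each was above the other in 4 of 8 libraries, so their order is not resolved. PDIA6, HSPA5 and PDIA4 lay at 68.4, 67.0 and 58.8 CPM per kb, and neighbours among them kept this order in only 5 of 8 libraries. HYOU1 had 28.2 CPM per kb and was above DNAJC3 (21.1 CPM per kb) in 7 of 8 libraries. DNAJB9 (7.65 ± 0.90 CPM per kb) and SDF2L1 (7.14 ± 3.18 CPM per kb) were lowest, near the median of 6.90 CPM per kb over 13867 genes with a length, and DNAJB9 was the higher in 3 of 8 libraries. The other 4 steps in the order, from CALR to HSP90B1, CANX to PDIA6, PDIA4 to HYOU1 and DNAJC3 to DNAJB9, held in 8 of 8 libraries. Lengths are the union of GENCODE v29 exons, and the exons counted by the authors may differ.

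**Figure D1:**
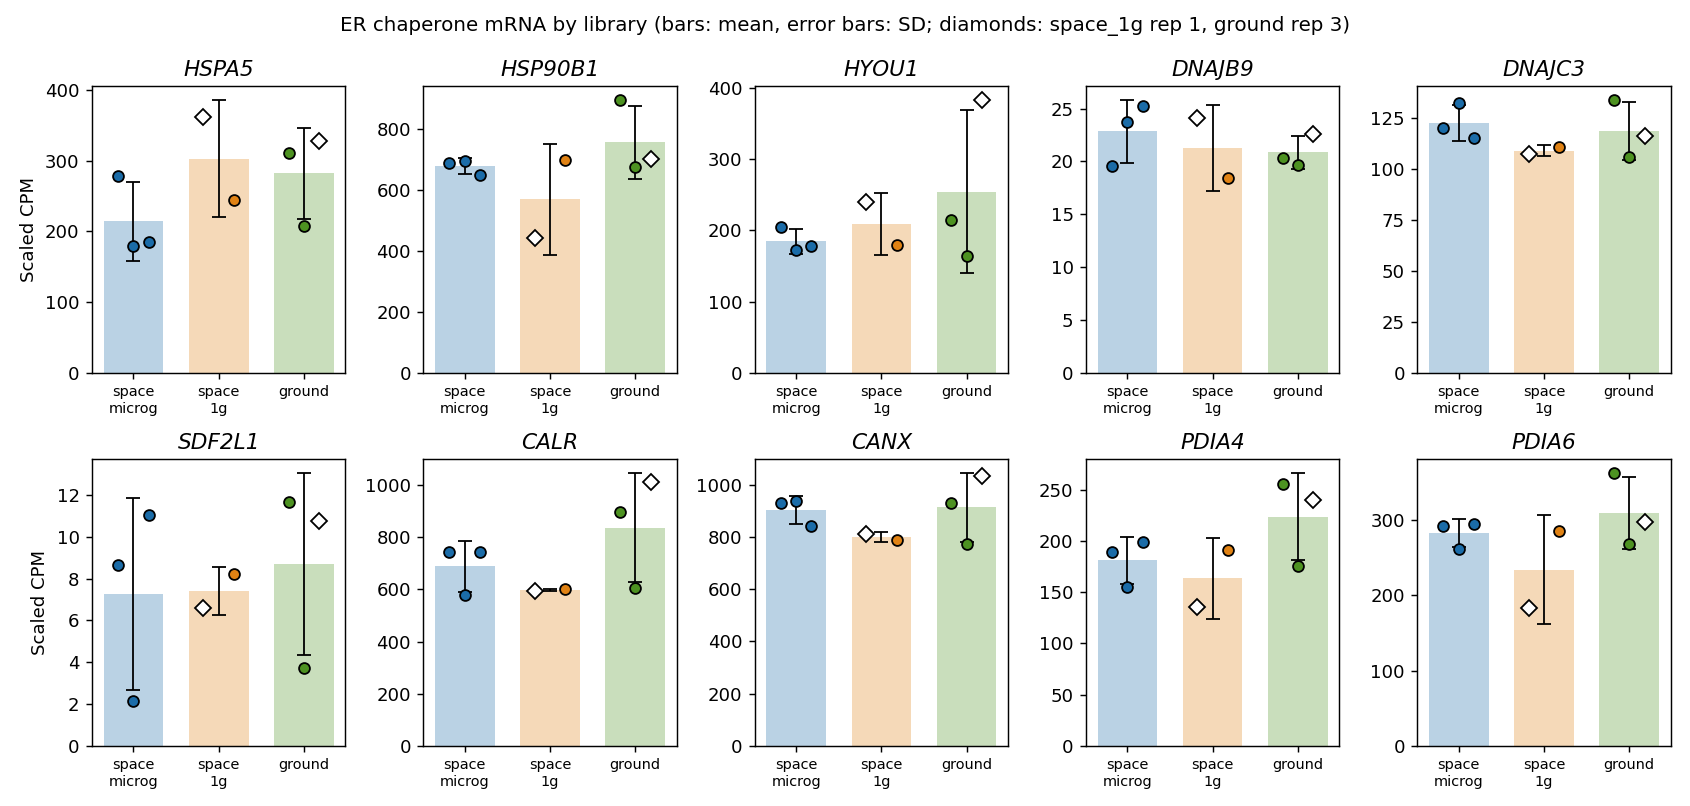
Scaled CPM of the 10 ER chaperone mRNAs (vertical axes, from 0) in space_microg, space_1g and ground; points are libraries, bars the group mean, error bars the SD, and white diamonds mark space_1g replicate 1 and ground replicate 3. The points of space_microg and ground overlap for every gene, and SDF2L1 ranges from 2.13 to 11.7 CPM.

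HSPA5 (BiP, chr9:125234853-125241330) is the Hsp70 of the ER, which binds unfolded chains and holds the sensors inactive. It had 278, 179 and 185 CPM in the 3 space_microg libraries, 361 and 244 CPM in space_1g, and 311, 208 and 327 CPM in ground. Space_microg replicates 2 and 3 were the lowest of all 8 and space_1g replicate 1 the highest, and the groups overlapped. Its means were 214 ± 55.8 CPM in space_microg, 303 ± 82.7 CPM in space_1g and 282 ± 64.5 CPM in ground. In bulk RNA, less RNA per cell and fewer cells with the RNA cannot be told apart, here or for any gene below.

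HSP90B1 (GRP94, chr12:103930107-103953645) is the Hsp90 of the ER and folds integrins and Toll-like receptors. It had 689, 696 and 649 CPM in space_microg, 441 and 697 CPM in space_1g, and 894, 674 and 702 CPM in ground. Space_1g replicate 1, where HSPA5 was highest, was the lowest, and the others lay between 649 and 894 CPM. A processed pseudogene, HSP90B2P, was listed at a mean of 2.41 CPM, so some reads could be split between the copies, and C12orf73, on the opposite strand with overlapping exons, was at 7.01 CPM. HYOU1 (GRP170, chr11:119044189-119057202) exchanges nucleotide on HSPA5. It had 205, 172 and 178 CPM in space_microg, 240.4 and 179 CPM in space_1g, and 215, 164 and 383 CPM in ground. Ground replicate 3 was far above the rest, and ground held both the highest and the lowest library.

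Of the J-domain proteins, which deliver clients to HSPA5, DNAJB9 (ERdj4, chr7:108569568-108574850) had 19.5, 23.7 and 25.3 CPM in space_microg, 24.1 and 18.4 CPM in space_1g, and 20.3, 19.6 and 22.6 CPM in ground. Its exons overlap PNPLA8 (mean 76.4 CPM) and THAP5 (42.6 CPM) on the opposite strand, and no source used here gives the strand setting of the counting, so its level is uncertain. DNAJC3 (p58IPK, chr13:95677139-95794989) was the steadiest member. It had 120.2, 133 and 115 CPM in space_microg, 107 and 111 CPM in space_1g, and 134, 106 and 116 CPM in ground. Its highest library was 1.26 times its lowest, and 5.45% of genes tested varied as little over the 8 libraries.

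SDF2L1 (chr22:21642261-21644298), a partner of HSPA5 and its J-domain proteins, was the most variable member. It had 8.66, 2.13 and 11.04 CPM in space_microg, 6.60 and 8.23 CPM in space_1g, and 11.7, 3.71 and 10.8 CPM in ground. Space_microg replicate 2 and ground replicate 2 were low and the other 6 libraries lay within 6.60 to 11.7 CPM. The low values rest on 73 reads (95% Poisson interval 1.67 to 2.68 CPM) and 93 reads (2.99 to 4.54 CPM), and these intervals cover counting error only. Counting error is therefore smaller than the gap to the other libraries, of which the lowest interval began at 5.72 CPM. Its SD on the log2 scale was above that of 95.1% of the genes.

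The lectin chaperones retain glycoproteins until they are folded. Soluble CALR (calreticulin, chr19:12938578-12944489) had 744, 577 and 745 CPM in space_microg, 594 and 601 CPM in space_1g, and 896, 605 and 1011 CPM in ground. Both space_1g libraries were below all 3 ground libraries, the nearest pair being 601 CPM and 605 CPM, and space_microg overlapped both groups. Membrane-bound CANX (calnexin, chr5:179678628-179730925) had 931, 938 and 843 CPM in space_microg, 813 and 788 CPM in space_1g, and 931, 774 and 1035 CPM in ground. All 3 space_microg libraries were above both space_1g libraries, and ground spanned both.

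The disulfide isomerases PDIA4 (ERp72, chr7:149003062-149028641) and PDIA6 (P5, chr2:10783391-10837977) form and rearrange disulfide bonds. PDIA4 had 189, 155 and 199 CPM in space_microg, 135 and 191 CPM in space_1g, and 255, 175 and 240.0 CPM in ground. PDIA6 had 291, 262 and 295 CPM in space_microg, 183 and 285 CPM in space_1g, and 362, 269 and 297 CPM in ground. For both, space_1g replicate 1 was the lowest library and ground replicate 1 the highest, as for HSP90B1.

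In the comparison of microgravity in flight with Earth, 8 of the 10 chaperones were lower on average in space_microg, with differences from -0.40 ± 0.26 (SE) for HSPA5 to -0.0060 ± 0.17 for CANX on the log2(CPM + 1) scale. HYOU1 (-0.37 ± 0.29), SDF2L1 (-0.31 ± 0.55), PDIA4 (-0.29 ± 0.20) and CALR (-0.26 ± 0.22) followed HSPA5, while DNAJB9 (0.12 ± 0.18) and DNAJC3 (0.049 ± 0.14) were higher on average. None passed: limma with Benjamini-Hochberg adjustment over all genes gave adjusted p from 0.866 to 0.996 for the members, and called 0 of 16103 genes (0.00%). Below an unadjusted p of 0.05 limma had 0 members, against 2.05% of all genes higher and 2.27% lower. EdgeR and DESeq2 on recovered reads called 0 members each. Over all genes edgeR called 0 (741 below an unadjusted p of 0.05, against 696 in limma) and DESeq2 called 3 (871 unadjusted), ADCY4, FBLN5 and RBM3, which are named after their values were seen.

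The groups separated for 0 of the 10 members, against 7.88% of all genes separated with space_microg higher and 6.53% with it lower. Differences below 0 were found for 53.0% of all genes. The median of the 10 was -0.20, beside -0.022 over all genes tested. Leaving out ground replicate 1, 2 or 3 in turn gave medians of -0.040, -0.34 and -0.11, and leaving out space_microg replicate 2 gave -0.10. The 95% interval of HSPA5 ran from -0.98 to 0.19, that of DNAJC3 from -0.27 to 0.37 and that of CANX from -0.39 to 0.38. Without both libraries that stand apart, 7 of 10 were lower (50.8% of all genes), the median was -0.11, and HYOU1 differed by -0.029 ± 0.16.

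The centrifuged cells carry the conditions of flight other than weightlessness. In space_1g against ground, 8 of 10 members were lower on average: PDIA4 (-0.45 ± 0.23), CALR (-0.45 ± 0.25), HSP90B1 (-0.44 ± 0.23) and PDIA6 (-0.43 ± 0.22) had the largest differences. HSPA5 (0.10 ± 0.29) and DNAJB9 (0.017 ± 0.20) were higher on average. The comparisons of space_microg and space_1g share the ground libraries, so their values are set side by side and not as independent evidence. With limma the members had an adjusted p of 1.00 each, 0 of 16103 genes were called (0.00%), and 0 members had an unadjusted p under 0.05, where 0.720% of all genes did as higher and 0.826% as lower. EdgeR called 0 genes (227 below an unadjusted p of 0.05, against 249 in limma) and DESeq2 0 (327 unadjusted).

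Only CALR had groups that did not overlap, lower in both space_1g libraries, where 5.73% of all genes did so in that direction and 4.94% in the other. Of all genes, 48.8% had a difference below 0 and 51.2% above. The median of the 10 was -0.19, beside 0.0061 over all genes, and it was -0.49 without ground replicate 2 and -0.11 without ground replicate 3. Without space_1g replicate 1, HSP90B1, PDIA4 and PDIA6 differed by -0.11, -0.20 and -0.11, and without space_1g replicate 2 by -0.77, -0.70 and -0.75. With 1 library left in space_1g, its spread is taken to be that of the other groups. Without both libraries that stand apart, 9 of 10 members were lower (48.7% of all genes), with a median of -0.11 and CALR at -0.29 ± 0.28. Of the 10, 0 then had an unadjusted p under 0.05, against 1.92% of all genes as higher and 3.38% as lower.

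**Figure D2:**
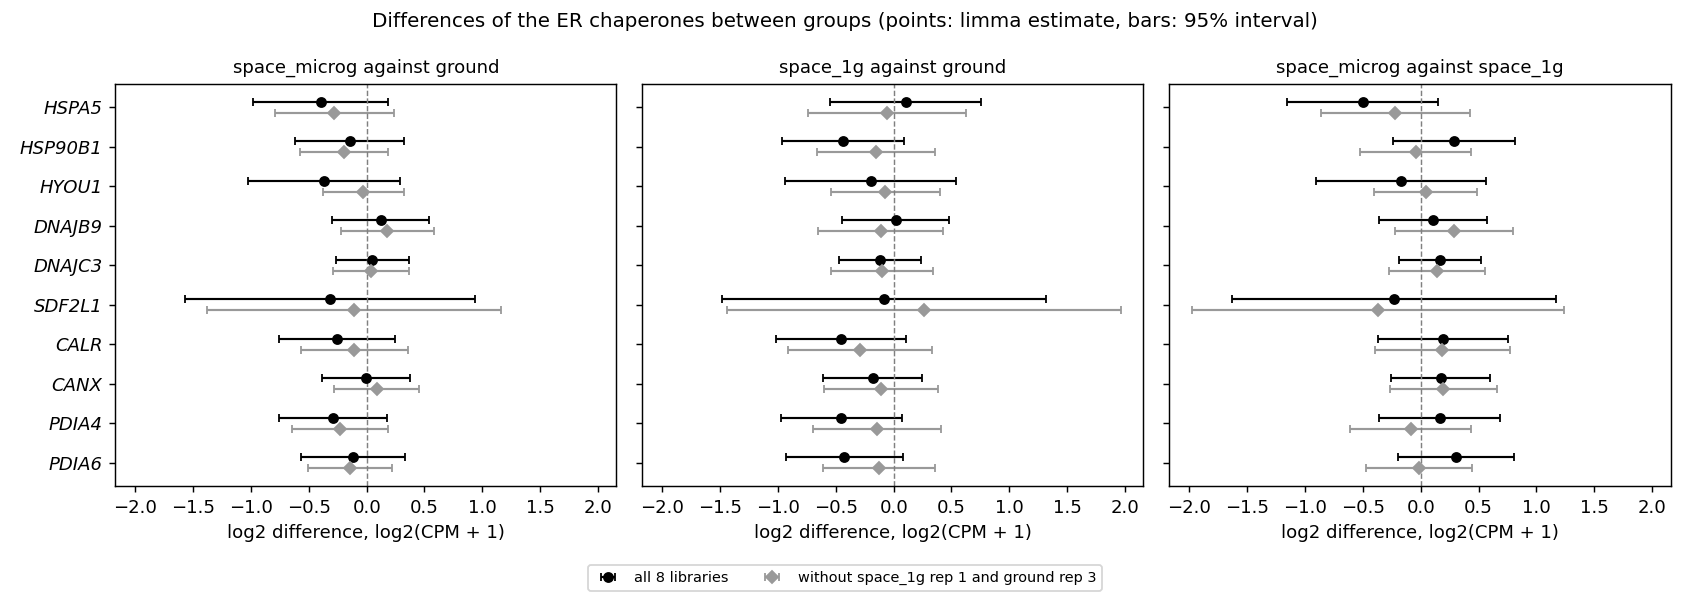
Log2 differences of the 10 ER chaperones on the log2(CPM + 1) scale (horizontal axes) in the 3 comparisons; black circles are limma estimates from all 8 libraries, grey diamonds those without space_1g replicate 1 and ground replicate 3, and bars are 95% intervals. Every interval crosses 0, and SDF2L1 has the widest.

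Space_microg against space_1g compares weightlessness with centrifugation in orbit. HSPA5 was lower in space_microg by the largest amount of any member, -0.50 ± 0.29, with a 95% interval from -1.15 to 0.15, while 7 members were higher on average. PDIA6 (0.31 ± 0.22) and HSP90B1 (0.29 ± 0.23) led these, followed by CALR (0.19 ± 0.25) and CANX (0.17 ± 0.19). With limma, adjusted p lay between 0.912 and 0.945 for the members and 0 of 16103 genes were called (0.00%). No member had an unadjusted p under 0.05, against 0.696% of all genes higher and 0.621% lower. EdgeR called 0 genes (221 below an unadjusted p of 0.05, against 212 in limma) and DESeq2 0 (339 unadjusted).

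DNAJC3 and CANX were higher in all space_microg than in all space_1g libraries, as 7.24% of all genes were, and 6.91% of all genes were lower in the same sense. Differences above 0 were found for 46.6% of all genes and below 0 for 53.4%. The median of the 10 was 0.16, beside -0.025 over all genes, and it was 0.015 without space_1g replicate 1. Without both libraries that stand apart HSPA5 differed by -0.22 ± 0.29, PDIA6 by -0.014 ± 0.20 and HSP90B1 by -0.042 ± 0.21, and 5 of 10 members were lower (51.1% of all genes). Again 0 of 10 had an unadjusted p under 0.05, against 0.411% of all genes as higher and 0.456% as lower. The positive differences of HSP90B1 and PDIA6 were therefore not kept once this pair of libraries was left out. Both differences were then smaller than their SE, with 1 library left in space_1g.

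The members did not vary as a block in every library. In ground replicate 1, 9 of 10 were above their own mean of the 8 libraries, with a median deviation of 0.32 and DNAJB9 as the exception. In ground replicate 3 also 9 of 10 were above, with a median of 0.29, and there HYOU1 deviated by 0.87 and CALR by 0.51 while HSP90B1 deviated by 0.067 and DNAJC3 by -0.012. Ground replicate 2 had 9 of 10 below, with a median of -0.16. In the space_microg libraries 8, 4 and 5 of 10 members were above their mean, and in the space_1g libraries 3 and 4 were.

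In space_1g replicate 1 the members split: HSPA5, HYOU1 and DNAJB9 deviated by 0.51, 0.20 and 0.15, while HSP90B1, PDIA6 and PDIA4 deviated by -0.60, -0.59 and -0.48. The ratio of HSPA5 to HSP90B1, which does not depend on scaling between libraries and was chosen after the values were seen, shows this directly. On the log2 scale it was -1.31, -1.96 and -1.81 in space_microg, -0.29 and -1.51 in space_1g, and -1.53, -1.70 and -1.10 in ground. Space_1g replicate 1 was highest, ground replicate 3 next, and space_microg replicates 2 and 3 lowest, and the groups overlapped.

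**Figure D3:**
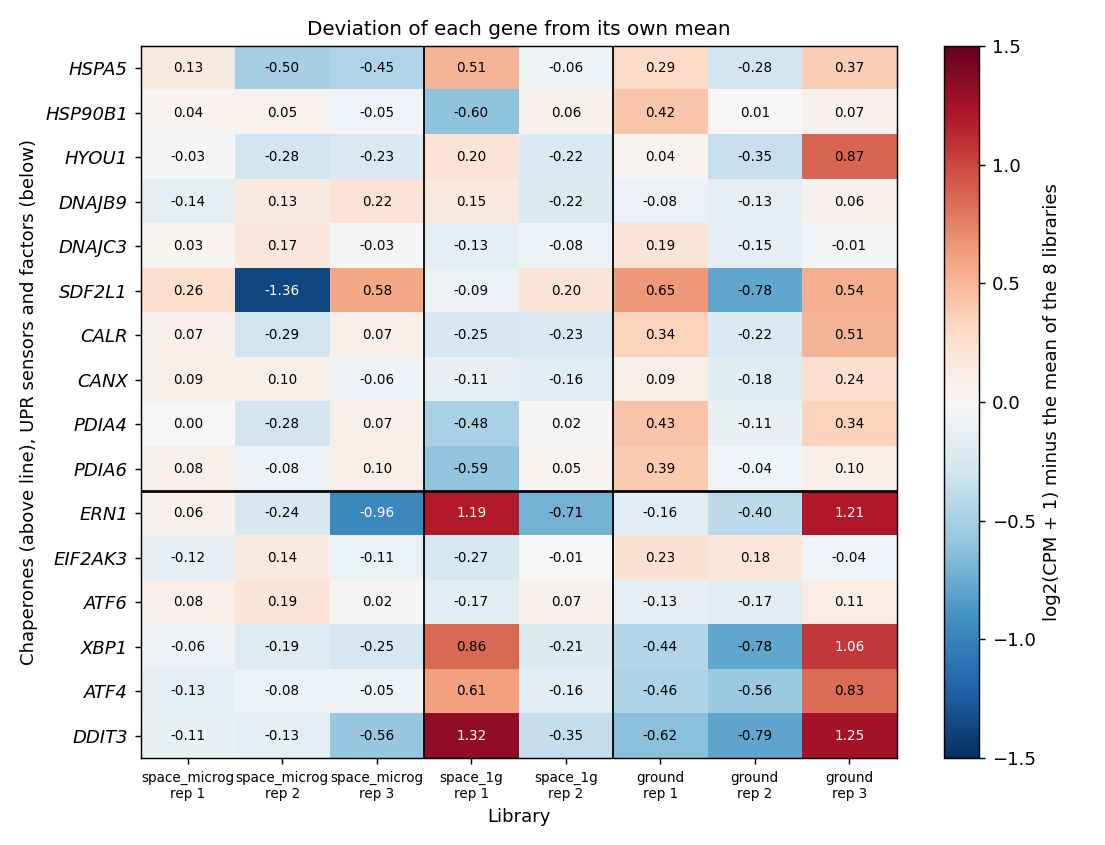
Deviation of log2(CPM + 1) from the mean of the 8 libraries (colour and printed number) for the 10 chaperones, above the line, and 6 sensors and factors of the unfolded protein response, below it; columns are libraries and vertical lines part space_microg, space_1g and ground. XBP1, ATF4, DDIT3 and ERN1 are high in space_1g replicate 1 and ground replicate 3, where chaperone deviations run from -0.60 to 0.87.

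The regulators were read beside the chaperones. XBP1, the factor made by IRE1 splicing, had 134, 122 and 117 CPM in space_microg, 255 and 121 CPM in space_1g, and 103, 80.9 and 292 CPM in ground. The 2 libraries that stand apart were highest by a wide margin, and gene counts do not tell the spliced form from the unspliced. ATF4, the main effector of PERK, had 655 CPM in space_1g replicate 1 and 762 CPM in ground replicate 3, against 289 to 411 CPM in the other 6. DDIT3 (CHOP), a pro-apoptotic factor, had 138 and 131 CPM in the same pair, against 31.2 to 50.3 CPM elsewhere, and the sensor ERN1 had 65.9 and 66.6 CPM, against 14.02 to 29.6 CPM. The sensors EIF2AK3 (36.1 to 51.4 CPM) and ATF6 (172 to 221 CPM) varied less over the 8 libraries. Of all 15 sensors and factors measured, 11 were lower on average in space_microg than in ground (median -0.093) and 6 were lower in space_1g than in ground (median 0.025). Of all genes, 53.0% and 48.8% were lower in these comparisons. In limma 0 of the 15 passed adjustment and 0 had an unadjusted p under 0.05 in them. Leaving out the 2 libraries that stand apart takes away the highest ground library for XBP1, ATF4 and DDIT3. Without the 2 libraries that stand apart, 5 of 15 were lower in space_microg than in ground (median 0.028), and 0 passed adjustment. At an unadjusted p under 0.05, 3 were then higher, XBP1 (0.44 ± 0.15), ATF4 (0.42 ± 0.13) and DDIT3 (0.44 ± 0.18), and 1 was lower, CREB3L2 (-0.36 ± 0.13), where 5.83% of all genes were higher and 7.0% lower. In space_1g against ground 5 of 15 were then lower (48.7% of all genes) and the median was 0.20, with 1 library left in space_1g. CREB3L1, a low gene, differed by 0.85 ± 0.32 there. It had 7.4 CPM in space_1g replicate 2, against 3.5 and 3.9 CPM in ground replicates 1 and 2.

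PERK and ATF4 targets, 15 genes of amino acid supply and stress such as TRIB3 and SLC7A11, had a summed level of 2032, 1566 and 1318 CPM in space_microg, 3491 and 1440 CPM in space_1g, and 1176, 1017 and 4192 CPM in ground. Their median deviation from the mean was 1.05 in space_1g replicate 1 and 1.38 in ground replicate 3, where that of the chaperones was -0.12 and 0.29. In limma 0 of 15 passed in any comparison with all libraries, also at an unadjusted p under 0.05. The median difference was -0.15 in space_microg against ground and 0.38 in space_1g against ground. In space_microg against ground 10 of 15 were lower (53.0% of all genes). Leaving out the pair, which was picked from these same data, takes away ground replicate 3, the highest library for this sum. Without the 2 libraries that stand apart, 15 of 15 were higher in space_microg than in ground, with a median of 0.48 and 8 below an unadjusted p of 0.05, and 0 of 15 after adjustment over all genes. TRIB3 (1.41 ± 0.25) and CHAC1 (1.12 ± 0.24) had the smallest unadjusted p there, and CHAC1 is named after its values were seen. In the same libraries 5.83% of all genes were higher and 7.0% lower at that unadjusted p, and the chaperones had a median of -0.11 with 0 of 10 at that p in either direction. Space_1g, with 1 library left, then had 14 of 15 higher than in ground with a median of 0.42.

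**Figure D4:**
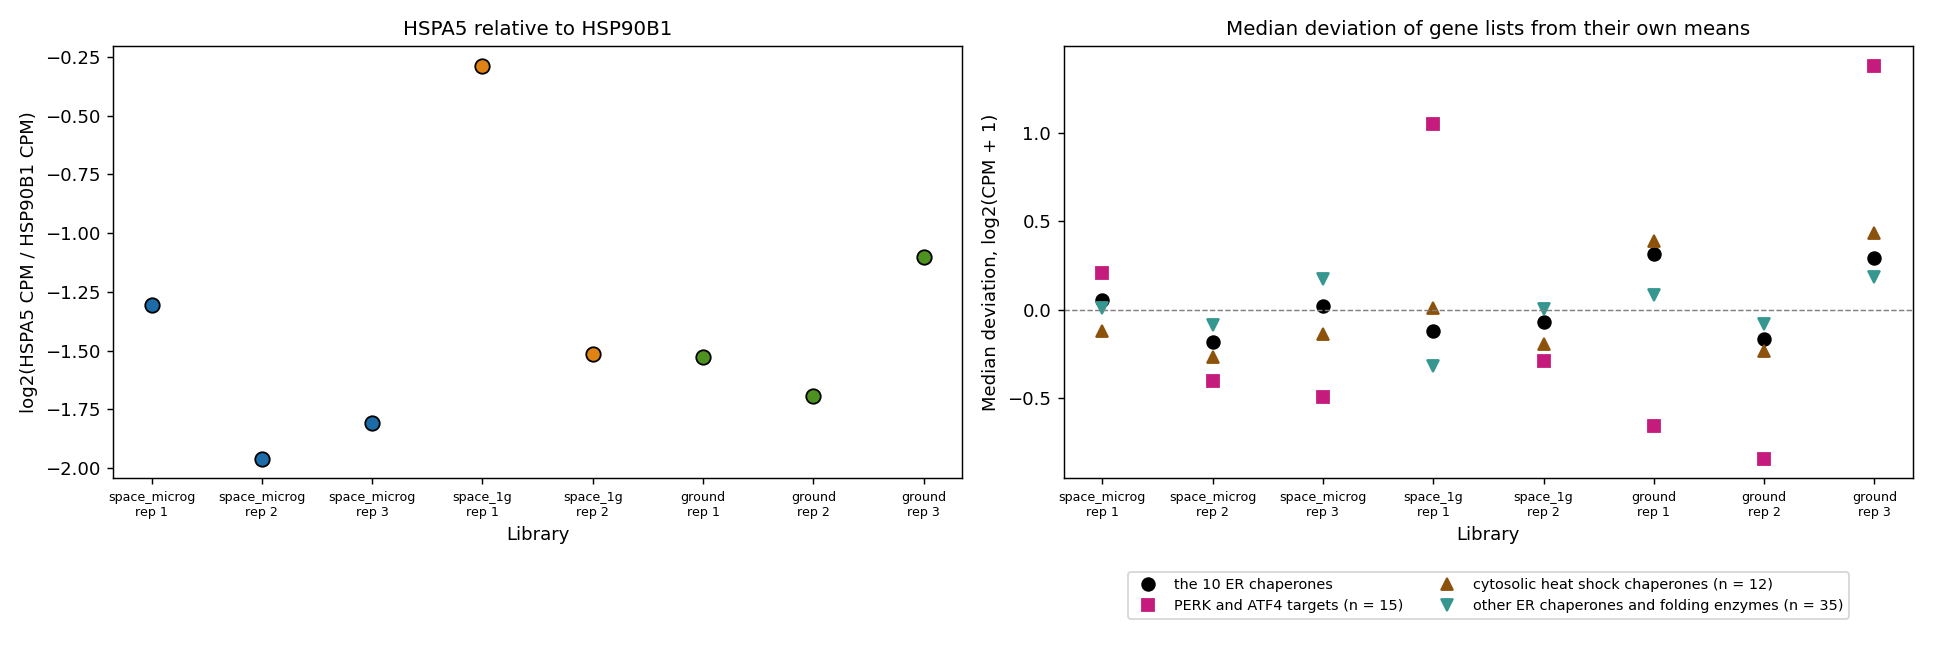
Left, log2 ratio of HSPA5 to HSP90B1 in each library; right, median deviation of log2(CPM + 1) from the mean of the 8 libraries for the 10 ER chaperones, PERK and ATF4 targets, cytosolic heat shock chaperones and other ER folding genes; points are libraries in the order space_microg, space_1g, ground. PERK and ATF4 targets reach 1.38 in ground replicate 3, where the chaperones reach 0.29.

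The other ER folding genes, 35 measured of 36 listed, gave 0 genes past adjustment in any comparison. In space_microg against ground 19 of 35 were lower (53.0% of all genes), with a median of -0.045 and 0 genes at an unadjusted p under 0.05. Without the 2 libraries that stand apart the median changed sign to 0.045 and 14 of 35 were lower (50.8% of all genes). HSPA13 (0.38 ± 0.14), named after its values were seen, was then higher at that p, as were 5.83% of all genes. In space_1g against ground 27 of 35 were lower (48.8% of all genes), with a median of -0.14. Without the 2 libraries that stand apart these values were 13 of 35 (48.7% of all genes) and 0.056, with 1 library left in space_1g. With all libraries ERP29, a chaperone related to the disulfide isomerases, was the only gene of this list at an unadjusted p under 0.05 in that comparison, at -0.61 ± 0.18. Of all genes, 0.826% were lower at that p. The isomerase PDIA3 was at -0.41 ± 0.20 and the collagen chaperone SERPINH1 at -0.55 ± 0.29. ERP29 had 99.7, 96.7 and 119 CPM in space_microg, 72.6 and 87.1 CPM in space_1g, and 129, 104 and 136 CPM in ground, so both space_1g libraries were below all ground libraries, as were 5.73% of all genes. Without the pair ERP29 differed by -0.40 ± 0.21 and 0 of 35 genes were at an unadjusted p under 0.05 in this comparison.

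ER-associated degradation, which returns misfolded chains to the cytosol, had 8 of 22 genes lower in space_microg than in ground (53.0% of all genes) and a median of 0.026. HERPUD1 (-0.39 ± 0.16) and the ubiquitin ligase SYVN1 (-0.53 ± 0.23) were lower and the conjugating enzyme UBE2J1 (0.38 ± 0.16) higher at an unadjusted p under 0.05, where 2.27% of all genes were lower and 2.05% higher, and 0 of 22 passed adjustment in limma in any comparison. Without the 2 libraries that stand apart 5 of 22 were lower (50.8% of all genes), with a median of 0.11. SYVN1 (-0.40 ± 0.18) was still at that p, while HERPUD1 (-0.29 ± 0.13, unadjusted p = 0.053) and UBE2J1 (0.29 ± 0.13, unadjusted p = 0.061) were not. DERL3 (-1.42 ± 0.29) and RNF139 (0.46 ± 0.17), named after their values were seen, were at that p then. The shares of all genes at that p were then 7.0% lower and 5.83% higher. DERL3 was low, at 2.2 to 4.7 CPM in space_microg and 8.8 and 10.2 CPM in ground replicates 1 and 2. The left-out ground replicate 3, at 1.8 CPM, lay below every space_microg library. With all libraries DERL3 differed by -0.79 ± 0.55 and RNF139 by 0.26 ± 0.21, neither at that p. HERPUD1, which also carries ERSE-II letters, had 76.3, 74.6 and 74.9 CPM in space_microg, 95.02 and 70.7 CPM in space_1g, and 97.6, 86.9 and 114 CPM in ground. All 3 space_microg libraries were below the 3 ground libraries, as were 6.53% of all genes. In space_1g against ground 10 of 22 were lower (48.8% of all genes) and the median was 0.041, or 6 of 22 (48.7% of all genes) and 0.070 without the pair.

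Genes of ER entry, transport and retrieval, such as the translocon and the KDEL receptors that return lumenal chaperones from the Golgi, were mostly higher in space_microg than in ground. This held for 23 of 26, with a median of 0.20, and 24 of 26 and 0.19 without the 2 libraries that stand apart. SSR3 (0.33 ± 0.14) and SRP72 (0.33 ± 0.14) were at an unadjusted p under 0.05, where 2.05% of all genes were higher, and 0 of 26 passed adjustment in limma. Of all genes, 47.0% had a difference above 0. In space_1g against ground 17 of 26 were higher (51.2% of all genes), with a median of 0.013, or 23 of 26 and 0.14 without the pair.

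Cytosolic heat shock chaperones, the counterparts outside the ER, had 11 of 12 genes lower in each flight group than in ground, with medians of -0.47 in space_microg and -0.31 in space_1g, where 53.0% and 48.8% of all genes were lower. The exception was HSPE1 in space_microg (0.013 ± 0.20) and HSPB1 in space_1g (0.10 ± 0.54). In space_1g against ground 1 of 12, HSPH1 (-0.58 ± 0.22), was at an unadjusted p under 0.05 in limma. Of all genes, 0.826% were lower at that p in that comparison. HSPH1 (-0.66 ± 0.20), HSPA1A (-1.23 ± 0.43) and HSP90AA1 (-0.39 ± 0.17) were at an unadjusted p under 0.05 in space_microg against ground, where 2.27% of all genes were lower at that p, and 0 of 12 passed adjustment. Without the pair HSP90AA1 was no longer at that p (-0.38 ± 0.17, unadjusted p = 0.055). Without the 2 libraries that stand apart 11 of 12 were lower in each flight group, with medians of -0.25 in space_microg and -0.23 in space_1g. Like the ER chaperones, this list had its highest median deviations in ground replicates 1 and 3, at 0.39 and 0.44. Ground replicate 2 was at -0.23, within the range of the flight libraries, -0.27 to 0.0084.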

How the data were processed

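RNA of 8 libraries was measured by stranded, ribosomal-RNA-depleted sequencing, per the labels. The values deposited by the authors are a signal for each gene, named CPM in the labels: a read count scaled for library size, with columns that sum to 966156 to 1061177. The submitters' processing notes list STAR 2.5.3, featureCounts, edgeR, FastQC and CASAVA 1.8.2, and the builds GRCh38 and hg38, with no roles. In every library 100% of values were whole multiples of a single step (tolerance 1e-06 of a read), which gave 24248964 to 35388757 reads per library; in space_microg replicate 1 the smallest value is 3 reads, so its step was taken from differences between values. The number of columns not mapped to a sample was 0.

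Genes with at least 1 CPM in at least 2 libraries were tested with limma 3.58.1 (R 4.3.3, mean trend) on log2(CPM + 1), all 8 libraries in a single fit, two-sided, with Benjamini-Hochberg adjustment over all 16103 genes and a threshold of 0.05. A fold on this scale understates the change of low genes. Alternatives were other pseudocounts, filters, scalings and variance models, the replicate number as a block, edgeR 4.0.16 and DESeq2 1.42.0 on recovered reads, and fits without single libraries or without the pair that stands apart. The members and lists were chosen with earlier results of these data known, so nothing was adjusted over a list. All members were named; of each other list, up to 4 genes per comparison with the smallest unadjusted p could be named, plus ERN1, EIF2AK3, ATF6, XBP1, ATF4 and DDIT3. Exon lengths and gene positions come from GENCODE v29 (GRCh38), which held 13895 of 16153 symbols. Poisson intervals cover counting error only.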

Additional observations from a re-analysis of the deposited data

How the results depend on the processing

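Across 20 alternative settings 0 of the 10 chaperones passed the adjusted threshold in any comparison, the smallest adjusted p being 0.322 in limma. Of 600 alternative member differences, 31 changed sign, in 13 of 30 differences, 21 of them on leaving out 1 library. The genes called in space_microg against ground numbered 0 in limma and 3 in DESeq2. CANX, space_microg against ground, was 0.022 in edgeR and 0.089 without both libraries that stand apart. Without that pair, space_1g against ground was -0.058 for HSPA5, -0.11 for DNAJB9 and 0.26 for SDF2L1, and space_microg against space_1g was -0.042 for HSP90B1, 0.043 for HYOU1, -0.088 for PDIA4 and -0.014 for PDIA6. Leaving out each library in turn, space_microg against ground ran from -0.029 to 0.14 for DNAJC3, -0.77 to 0.28 for SDF2L1 and -0.12 to 0.089 for CANX. For space_1g against ground the ranges were -0.18 to 0.38 for HSPA5, -0.47 to 0.14 for HYOU1, -0.17 to 0.20 for DNAJB9 and -0.54 to 0.17 for SDF2L1, and the median of the 10 ran from -0.49 to -0.11. For space_microg against space_1g they were -0.042 to 0.62 for HSP90B1, -0.38 to 0.043 for HYOU1, -0.083 to 0.29 for DNAJB9, -0.61 to 0.36 for SDF2L1, -0.088 to 0.41 for PDIA4 and -0.014 to 0.63 for PDIA6. The cause of these changes was not tested. Across genes, which are not independent replicates, deviations from group means correlated at 0.205, 0.556 and 0.601 for the replicate 2 libraries. Those of the other same-numbered libraries correlated at -0.678 to 0.679, with 3 values under 0.1. The 2 space_1g libraries deviate from their mean by equal and opposite amounts, so these values cannot decide whether the numbers pair the libraries. The main fit did not pair them. With the replicate block SDF2L1 was 0.21 in space_1g against ground, 0 genes were called, and 1013, 759 and 850 genes were below an unadjusted p of 0.05 in the 3 comparisons, against 696, 249 and 212 without it. The members, SDF2L1 with 73 reads in its lowest library included, are limited by the spread between 2 or 3 libraries per group.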

Other observations

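ERSE or ERSE-II letters were found in the promoter windows of 44 genes in all (0.161% of genes with a window), of which 30 were in the expression matrix and 23 were not among the 10 chaperones. Among these were XBP1, HERPUD1, the lumenal protein gene CRELD2, SERP1 of the translocon, FICD, which modifies HSPA5, the oxidase gene ERO1B and the mannosyltransferase gene ALG12, named here after their values were seen. In space_microg against ground 14 of the 23 were lower, with a median of -0.13, in space_1g against ground 13 of 23 with a median of -0.032, and in space_microg against space_1g 15 of 23 with a median of -0.035. Of all genes, 53.0%, 48.8% and 53.4% were lower in these comparisons. HERPUD1 (-0.39 ± 0.16) and ALG12 (-0.41 ± 0.18) were below an unadjusted p of 0.05 in space_microg against ground, where 2.27% of all genes were lower at that p, and 0 of 23 passed adjustment in limma in any comparison. Without both libraries that stand apart, 22 of these genes were tested and the medians were -0.012, -0.036 and -0.026 in the same order of comparisons. In space_microg against ground neither HERPUD1 (-0.29 ± 0.13) nor ALG12 (-0.29 ± 0.17) was then below that p, while NAV2 (-0.67 ± 0.26) and SYNPO (-0.62 ± 0.23), also named after their values were seen, were lower and XBP1 was higher. XBP1 itself was -0.12 ± 0.46 in space_microg against ground with all libraries and 0.44 ± 0.15 without that pair.

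Likeness was ranked among genes with a mean of at least 5 CPM that varied at least as much over the 8 libraries (SD of log2(CPM + 1)) as the course they were set against. Within that range, the genes whose course was closest to the mean of the 10 chaperones were PLPP1, a lipid phosphatase, DNAJA1, a cytosolic J-domain protein, OS9, a lectin of ER-associated degradation, TSTA3, an enzyme of GDP-fucose synthesis, and PTCD1, a mitochondrial RNA-processing factor. Their mean absolute differences from that course, in log2 units, were 0.060, 0.073, 0.075, 0.080 and 0.081, among 7735 genes ranked. CALR (0.085) was the closest of the 10 themselves. Closest to HSPA5 were the transcription factor gene CASZ1 (0.086), INPP5E, a phosphatase of cilia (0.10), the kinesin gene KIFC2 (0.11), AHDC1 (0.12) and the transporter gene ABCB6 (0.12), among 2825 genes ranked. The nearest fellow chaperone to HSPA5 was HYOU1, at 0.24, and HSP90B1 lay at 0.38. These are descriptions over 8 libraries that share the pair standing apart.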
